A study of Mus musculus with 9 samples.

Results

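The genes described here encode the subunits of the proteasome and the folding chaperones of the cell, measured in adipose tissue of mice. They were chosen by name among the listed protein coding genes. The names were those of proteasome subunits and activators (Psma, Psmb, Psmc, Psmd, Psme) and of subunits of the chaperonin CCT (Cct). The Hsp70, Hsp90, Hsp110 and Hsp40 families and the chaperonin pair Hspd1 and Hspe1 were added. The names matched 62 listed genes; Psmb8, Hspa5, Dnajb9 and Dnajb11 were left out, and 58 of the 3958 listed genes remained, 35 of the proteasome and 23 chaperones. The rule itself uses no measured value, but it was set with earlier results of these data known. Only the most abundant genes are listed, so abundance also decided which named genes could be members. The chaperones are mostly cytosolic, but Hspa9, Hspd1, Hspe1 and Dnaja3 encode mitochondrial proteins and were kept as a group of their own. Gene counts came from RNA sequencing of 9 libraries of male C57BL/6J mice, an inbred strain prone to diet-induced obesity, taken at day 21, with 3 libraries in each of 3 groups. The group EA (libraries 5, 7 and 8, titled APX) is labelled as electroacupuncture, a current passed through acupuncture needles, which the series design places on a high-fat diet. The groups MPX (libraries 2, 5 and 7) and CPX (libraries 4, 6 and 8) had no electroacupuncture; the design names a normal diet and a high-fat diet group, and the labels do not say which of the 2 is which, so differences between them carry no diet label here. Depot, age and any pooling of animals are not given, and the labels do not state that the libraries are separate mice, so a p-value reflects how much these libraries vary, which may be technical variation.

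Proteins marked with ubiquitin are unfolded and cut by the proteasome, a barrel of alpha and beta rings (the 20S core, whose beta subunits do the cutting) capped by the 19S regulator, whose ATPases pull the substrate in and whose other subunits bind and remove ubiquitin. Hsp70 binds unfolded stretches of protein with the help of Hsp40 partners and is reset by Hsp110 exchange factors; Hsp90 finishes selected clients such as kinases and steroid receptors, and CCT encloses actin and tubulin while they fold. In fat cells both systems are known to respond to the load of newly made and damaged protein, and the heat shock factor drives many of the chaperone genes through repeated heat shock elements.

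The listed counts summed to 12115183 to 14208853 per library, which is not the full depth, because the table holds only the most abundant genes. Every member had at least 256 counts in each library, and all 58 entered the tests. All 10 adipocyte markers were listed, whereas none of the 4 retina markers was; the extraction protocol in the labels mentions retinas. Libraries of CPX differed most from each other, with Spearman correlations over all listed genes of 0.187 (CPX 4 with CPX 6), 0.307 (libraries 6 and 8) and 0.723 (libraries 4 and 8). In MPX the lowest such correlation was 0.873 and in EA 0.795. Summed adipocyte markers reached 80430 CPM in CPX 4 and 6118 CPM in CPX 6, against 27840 to 39940 CPM in the other 7 libraries. Summed B cell markers (7 of 8 listed) were 573, 880 and 1650.0 CPM in EA 5, 7 and 8, against 46.4, 40.6 and 26.7 CPM in MPX 2, 5 and 7 and 17.3, 3159 and 53.4 CPM in CPX 4, 6 and 8. In tissue of mixed cells, fewer cells of a type and less RNA per cell cannot be told apart. Below, the values of a group always follow its library numbers, CPM are counts relative to the listed counts of a library after TMM scaling (a factor that equalises the bulk of genes between libraries), and a difference ± SE is on the log2 scale of the edgeR fit.

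Per kilobase of gene length, the cytosolic Hsp90 gene Hsp90ab1 and the constitutive Hsp70 gene Hspa8 were the most abundant members, at mean levels of 497 and 475 CPM per kb over the 9 libraries. Of the mitochondrial chaperones, Hspd1 at 142 and Hspa9 at 135 CPM per kb followed, then Hsp90aa1 at 133 CPM per kb, while Hspe1 had 78.8 and Dnaja3 24.1 CPM per kb. The 35 proteasome genes lay between 12.6 CPM per kb for the 19S subunit Psmd11 and 109.6 CPM per kb for the core subunit Psma6, with a median of 45.9. The CCT members ranged from 21.6 (Cct3) to 80.0 CPM per kb (Cct5). The Hsp40 gene Dnajb14 was the lowest member, at 5.14 CPM per kb.

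Set against MPX, mean levels in EA were higher for the main cytosolic chaperones and slightly lower for most proteasome subunits, but no member passed the test. By quasi-likelihood F tests in edgeR, with Benjamini-Hochberg adjustment over all listed genes, 0 of 58 members and 0 of 3958 genes (0%) had an adjusted p under 0.05, the lowest being 0.775. Before adjustment, 4 members had p under 0.05, all higher in EA (6.9% of members), where 202 genes (5.1%) did so, 2.1% with a positive and 3.01% with a negative difference. DESeq2 called 1 member, Hsph1, among 49 genes, and limma voom called 0. A fit of the EA and MPX libraries alone called 84 genes, none of them a member. Ranges that did not overlap, with EA higher, were found for 14 of the 23 chaperones (60.9%) and 2 of the 35 proteasome genes (5.71%), beside 21.5% of all listed genes. With EA lower they were found for 2 chaperones (8.7%) and 11 proteasome genes (31.4%), beside 19% of all listed genes. The difference was positive for 19 chaperones and 6 proteasome genes, beside 51.4% of all genes (48.6% being negative), and its median was 0.33 over the chaperones, -0.12 over the proteasome genes and 0.01 over all genes.

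**Figure D1:**
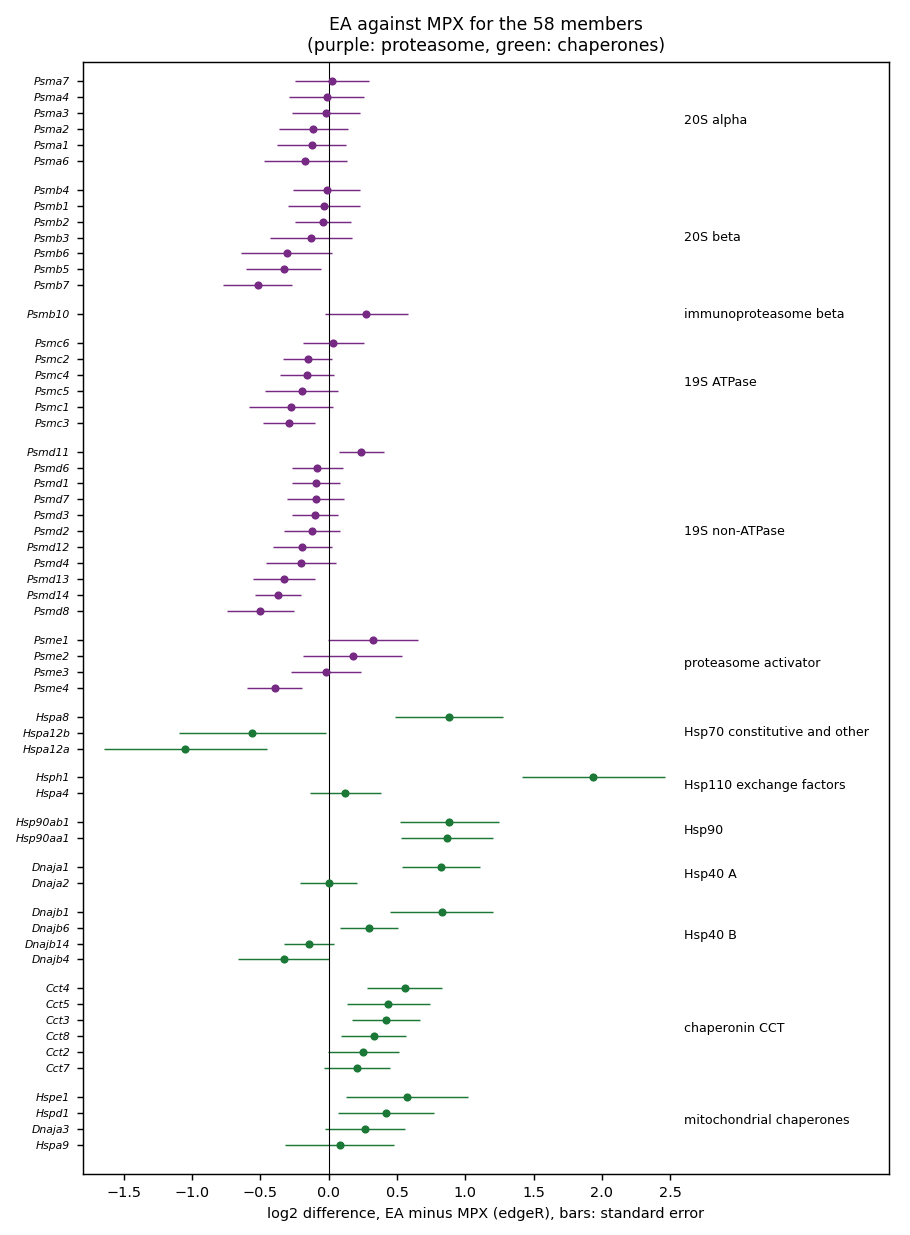
Log2 difference between EA and MPX (x axis, EA minus MPX, edgeR) for each of the 58 members, grouped by role, with bars of 1 standard error. Hsph1 lies farthest to the right at 1.94, the CCT and mitochondrial chaperones all lie right of 0, and 27 of the 30 core and cap subunits of the proteasome lie left of 0.

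The widest gap was that of Hsph1 (chr5:149614287-149636376, minus strand), the Hsp110 protein that releases ADP from Hsp70. Hsph1 had 139.9, 190.2 and 376 CPM in EA, against 38.5, 39.6 and 107 CPM in MPX and 117, 140.2 and 81.3 CPM in CPX. All 3 EA libraries lay above all 3 MPX libraries, EA 8 was the highest of the 9, and MPX 2 and MPX 5 were the lowest. The difference between EA and MPX was 1.94 ± 0.52, unadjusted p = 0.00563 (adjusted p = 0.775), while DESeq2 gave an adjusted p of 0.0159. Without EA 8 it was 1.42 and without MPX 7 it was 2.56, and with the 2 groups fitted alone the edgeR adjusted p was 0.0847. Hspa4, the second Hsp110 gene, reached a mean of 218 ± 33.0 CPM in the EA group, against 200.5 ± 25.7 CPM in MPX (SD, n = 3 each), with overlapping ranges.

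Hspa8, the constitutive cytosolic Hsp70 that folds new proteins and uncoats vesicles (chr9:40800984-40810087, plus strand), differed by 0.88 ± 0.40, unadjusted p = 0.0552. Hspa8 had 1985, 2029 and 3145 CPM in EA, against 1111, 1008 and 1775 CPM in MPX and 2893, 2697 and 1729 CPM in CPX. The lowest EA library exceeded the highest MPX library, and CPX overlapped with both. Hsp90aa1 is the inducible and Hsp90ab1 the constitutive form of cytosolic Hsp90. Hsp90aa1 had 501, 527 and 812 CPM in EA, against 328, 262 and 419 CPM in MPX and 583, 804 and 451 CPM in CPX. Hsp90ab1 had 1544, 1538 and 2238 CPM in EA, against 952, 744 and 1191 CPM in MPX and 1677, 2250 and 1271 CPM in CPX. Each EA and each CPX library lay above each MPX library for both genes, EA and CPX overlapped, and MPX 5 was the lowest library for both; the differences were 0.87 ± 0.34, unadjusted p = 0.0324 for Hsp90aa1 (chr12:110690605-110702728, minus strand) and 0.88 ± 0.36, unadjusted p = 0.0395 for Hsp90ab1 (chr17:45567775-45573271, minus strand). Their ratio per length hardly moved, lying between 0.248 and 0.277 in all 9 libraries.

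Among the Hsp40 genes, whose products hand substrates to Hsp70 and start its ATPase, Dnaja1 and Dnajb1 stood out from the other 4. Dnaja1 had 336, 402 and 477 CPM in EA, against 197, 188 and 302 CPM in MPX and 405, 326 and 274 CPM in CPX. Dnajb1 had 98.1, 105 and 138 CPM in EA, against 51.7, 58.7 and 81.8 CPM in MPX and 109, 174 and 59.3 CPM in CPX. EA lay above MPX without overlap for both, by 0.82 ± 0.28, unadjusted p = 0.0191 for Dnaja1 and 0.83 ± 0.38, unadjusted p = 0.0597 for Dnajb1 (chr8:83608193-83612653, plus strand). Dnajb6, which holds back protein aggregation, had 119.9, 116 and 102 CPM in EA, against 93, 88.7 and 94.2 CPM in MPX, again without overlap (0.29 ± 0.21). Dnaja2 differed by 0.00 ± 0.21 and Dnajb4 by -0.33 ± 0.34, both with overlapping ranges, and Dnajb14, an Hsp40 of the endoplasmic reticulum membrane, was lower in every EA than in every MPX library (-0.14 ± 0.18). Where exons overlap on the other strand, reads cannot be told apart because the strand setting is not given in the sources used here. This touches Dnaja1 (Smu1 and Gm6297), Cct7 (Pradc1), Cct8 (Usp16), Psmb7 (Nek6), Psmc3 (Slc39a13), Psmd13 (Sirt3) and Psme1 (Emc9). It also touches Dnaja3 (Coro7), Dnajb6 (Gm5129), Dnajb14 (Gm25920), Hspa12a (Eno4), Psma4 (AY074887), Psmd1 (Htr2b) and Psmd3 (Gm12356). Hspd1 and Hspe1 overlap with each other.

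**Figure D2:**
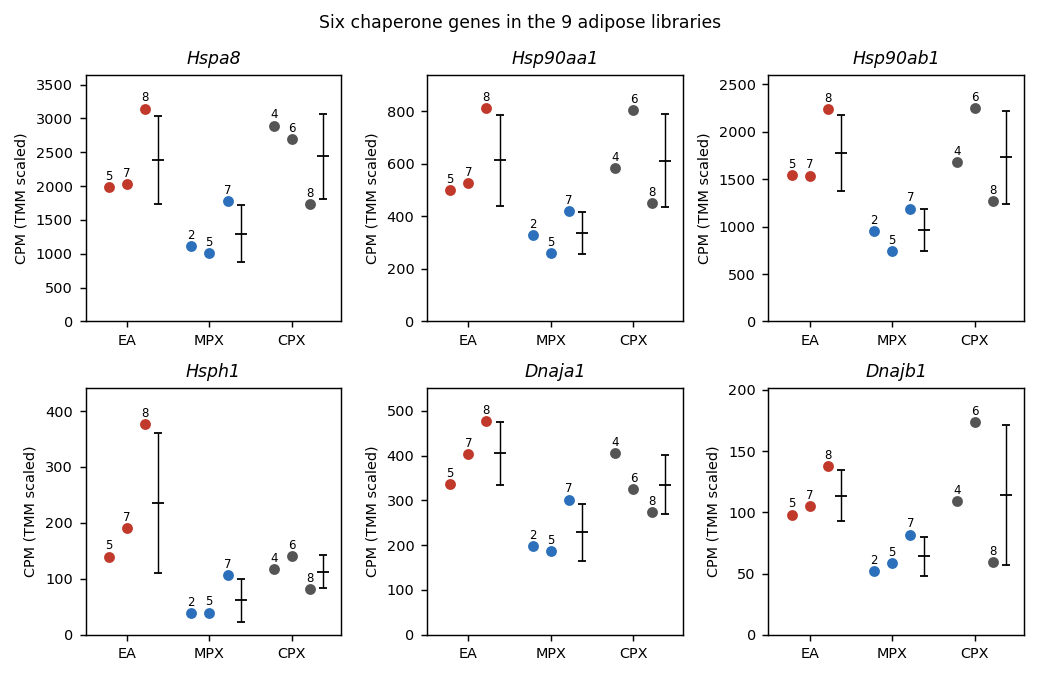
Level of 6 chaperone genes (y axis, CPM after TMM scaling, from 0) in each library of EA, MPX and CPX; points carry the library number, and bars beside them show the mean ± SD of 3 libraries. For each gene the 3 EA points lie above the 3 MPX points, EA 8 is the highest EA library, and CPX spreads widely.

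These 6 chaperone genes, picked after their values had been seen, varied together over the libraries. Their pairwise Spearman correlations over the 9 libraries had a median of 0.88 (0.80 to 0.97), and that of the Hsp90 pair was 0.97. Against the 13 core subunits of the proteasome the same genes had a median of 0.09 (-0.57 to 0.58). Over all pairs of the 23 chaperones the median was 0.45 (-0.93 to 0.98), so the likeness of the 6 partly follows from how they were picked. All libraries share their scaling and differ in cell makeup, so these are descriptions. B cell markers were also higher in every EA than in every MPX library, and their part in these differences was not tested. Summed over 5 ribosomal protein genes, the libraries held 3819, 4520.0 and 6481 CPM in EA, against 3184, 2205 and 2634 CPM in MPX and 7895, 11690 and 3190.0 CPM in CPX, so EA exceeded MPX here too. The 5 listed immediate early genes, of 9 in the list, which cells switch on within minutes of a disturbance, summed to 349.8, 421 and 382 CPM in EA, against 1371, 501 and 1028 CPM in MPX and 296, 385 and 485 CPM in CPX. The part of either in the chaperone levels was not tested.

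Promoters of members that hold a heat shock motif are shown because heat shock elements are the known entry point of the heat shock factor. RefSeq start sites on GRCm38.p6, with 250 bases before and 50 after each, were at hand for 47 of the 58 members; Hspa8, Hspa9, Hsp90aa1, Hsp90ab1, Cct4, Psmb1, Psmb2, Psmb7, Psmc3, Psmd3 and Psmd7 had no entry. A heat shock element of 3 units, GAA, TTC and GAA with 2 free bases between neighbours, read on either strand, was found in 4 members (8.51%), beside 0.662% of 27025 genes: Hsph1, Hspe1, Hspd1 and Dnajb6. It was found in 0 of 29 proteasome and 4 of 18 chaperone genes with a promoter. The shorter inverted pair GAANNTTC (both strands), which lies inside the longer element, was found in 7 members (14.9%) beside 9.04% of genes, the additional ones being Dnaja1, Cct2 and Psmb5. Of the chaperone genes that varied together above, Hsph1 held the longer element, Dnaja1 only the pair and Dnajb1 neither. Hspa8, Hsp90aa1 and Hsp90ab1 could not be searched. On both strands, the antioxidant type motif TGACNNNGC was found in 10 members (21.3%) beside 14.0% of genes, and CCAAT in 18 (38.3%) beside 41.1%. Below, capitals mark the 3-unit element (for Dnaja1 the inverted pair), and each sequence runs 5′ to 3′ on the strand of its gene. In Hspe1 (chr1:55087898-55088147, plus strand), Dnajb6 (chr5:29735648-29735897, plus strand) and Dnaja1 (chr4:40722218-40722467, plus strand) the 250 bases end just before a RefSeq start site. The Dnaja1 stretch lies wholly, and that of Dnajb6 mostly, inside the deposited gene span, and both genes have other start sites. For Hsph1 (chr5:149636287-149636316, minus strand) 30 bases around a match just after a start site are given.
Hsph1: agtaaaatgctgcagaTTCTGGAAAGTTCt
Hspe1: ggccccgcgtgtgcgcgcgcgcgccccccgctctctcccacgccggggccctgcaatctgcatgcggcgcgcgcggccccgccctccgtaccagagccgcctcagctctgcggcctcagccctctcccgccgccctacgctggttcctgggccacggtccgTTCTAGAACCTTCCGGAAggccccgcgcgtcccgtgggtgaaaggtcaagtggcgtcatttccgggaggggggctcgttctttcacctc
Dnajb6: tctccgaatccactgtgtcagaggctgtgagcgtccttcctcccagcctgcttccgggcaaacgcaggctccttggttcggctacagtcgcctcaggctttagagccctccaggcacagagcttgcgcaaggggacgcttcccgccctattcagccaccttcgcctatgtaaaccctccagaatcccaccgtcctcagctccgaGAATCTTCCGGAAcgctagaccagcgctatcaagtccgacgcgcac
Dnaja1: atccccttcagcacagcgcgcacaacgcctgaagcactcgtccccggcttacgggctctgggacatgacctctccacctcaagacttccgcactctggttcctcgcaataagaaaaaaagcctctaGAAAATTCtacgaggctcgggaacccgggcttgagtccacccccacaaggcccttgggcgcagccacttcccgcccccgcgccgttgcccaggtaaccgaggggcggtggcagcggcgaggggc
In Hspe1 the capitals join a pair of overlapping matches. Hspd1 lies head to head with Hspe1 on chromosome 1, and the deposited gene spans overlap by 112 bases. The same letters precede 1 of the RefSeq start sites of Hspd1 and lie inside its deposited span. A match is a description of the letters and not evidence of binding.

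The CCT chaperonin members were higher in EA than in MPX on average for 6 of 6 genes, with a median difference of 0.38. For 5 of these 6 members the ranges did not overlap (83.3%, beside 21.5% of all listed genes). Tcp1, a further listed CCT subunit that the name rule does not match, differed by 0.19 ± 0.20 with overlapping ranges. Cct4 had 192, 199.5 and 245 CPM in EA, against 154, 119.9 and 159 CPM in MPX and 344, 281 and 179 CPM in CPX. Cct2 had 169.7, 171 and 204 CPM in EA, against 144, 146 and 167 CPM in MPX and 230.1, 282 and 142 CPM in CPX. EA 8 was the highest EA library for both, and MPX had the lowest mean, with the differences at 0.56 ± 0.28, unadjusted p = 0.0755 for Cct4 (chr11:22990519-23003780, plus strand) and 0.25 ± 0.26, unadjusted p = 0.36 for Cct2. The other 4 differences were 0.44 ± 0.30 for Cct5, 0.42 ± 0.25 for Cct3, 0.33 ± 0.24 for Cct8 and 0.21 ± 0.24 for Cct7. Within the ring the 6 genes followed each other closely over the 9 libraries (median Spearman correlation 0.85, lowest 0.77). CPX 6, the library with the most B cell and the least adipocyte marker signal, held the highest level of 5 of the 6; it did so for 34.2% of all listed genes.

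Mitochondrial chaperones had the same order of means between EA and MPX, all 4 differences being positive with a median of 0.34. Hspd1 had 445, 346 and 437 CPM in EA, against 317, 252 and 349 CPM in MPX and 634, 272 and 314 CPM in CPX. Hspe1 had 100.2, 92 and 144 CPM in EA, against 84.1, 53.3 and 88 CPM in MPX and 262, 150.4 and 71.4 CPM in CPX. Hspd1, the Hsp60 ring, overlapped between EA and MPX, while Hspe1, its Hsp10 lid, did not; their differences were 0.42 ± 0.35, unadjusted p = 0.264 and 0.58 ± 0.45, unadjusted p = 0.233. CPX 4 was above the other 8 libraries for Hspe1 and also had the highest mitochondrially encoded RNA, 112400 CPM summed over 4 genes, against 22180 to 40010 CPM in the other 8. The part of mitochondrial content in these levels was not tested. Hspe1 and Hspd1 have 6 and 5 named pseudogenes, so reads may have been split. Dnaja3, the mitochondrial Hsp40, differed by 0.27 ± 0.29, and Hspa9, the mitochondrial Hsp70, by 0.08 ± 0.40.

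The distant Hsp70 relatives Hspa12a and Hspa12b, the second of which is known from endothelial cells, had negative differences. Hspa12a had 114, 151 and 72.1 CPM in EA, against 160.5, 249 and 288 CPM in MPX and 149, 36.7 and 233 CPM in CPX. Hspa12b had 78.5, 118 and 40.8 CPM in EA, against 108, 144 and 97.6 CPM in MPX and 56.8, 19.6 and 85.7 CPM in CPX. Every EA library lay below every MPX library for Hspa12a (-1.05 ± 0.60, unadjusted p = 0.114), while Hspa12b overlapped (-0.56 ± 0.54, unadjusted p = 0.327), and CPX 6 was the lowest of all libraries for both genes. Summed adipocyte markers were lowest in CPX 6 as well and, within EA, in EA 8. Summed endothelial markers were 1218, 1418 and 1050 CPM in EA, against 1466, 2219 and 1434 CPM in MPX and 904, 1039 and 1402 CPM in CPX. The part of either was not tested.

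For the 20S core, EA and MPX were nearly level, and the small differences were negative in 12 of 13 genes (92.3%, beside 48.6% of all genes). Without EA 7 in the fit, 7 of 13 were negative. Psmb5, Psmb6 and Psmb7 encode the 3 cutting subunits of the constitutive core, and with TMM all 3 were lower in EA than in MPX without overlap. Scaled by listed totals alone, only Psmb7 stayed without overlap, while Psmb5 and Psmb6 overlapped. Psmb7 had 84.9, 70 and 60 CPM in EA, against 96.6, 103 and 108 CPM in MPX and 111, 61.4 and 67.3 CPM in CPX. Psmb5 had 81.8, 63.5 and 72 CPM in EA, against 94, 84.6 and 94.6 CPM in MPX and 119, 67.7 and 58.4 CPM in CPX. Psmb6 had 90, 96.2 and 94.1 CPM in EA, against 128, 104 and 115 CPM in MPX and 198, 85.2 and 83.9 CPM in CPX. EA 8 was the lowest library for Psmb7, and CPX 4 the highest for all 3 genes. The differences were -0.52 ± 0.26, unadjusted p = 0.0741 for Psmb7 (chr2:38588036-38644087, minus strand), -0.33 ± 0.27, unadjusted p = 0.262 for Psmb5 and -0.31 ± 0.34, unadjusted p = 0.383 for Psmb6. Other core genes, such as Psma3 (-0.02 ± 0.25) and Psma7 (0.02 ± 0.27), differed by less than their error. With TMM, non-overlap with EA lower was also found for Psma2 and Psmb3, giving 5 of 13 core genes (38.5%, beside 19% of all genes).

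In the 19S cap, 15 of 17 differences were negative with TMM (88.2%, beside 48.6% of all genes), and 11 of 17 when scaled by listed totals alone. Psmd14 had 73.1, 68.3 and 67.5 CPM in EA, against 80.2, 92 and 97.5 CPM in MPX and 99.6, 94.5 and 78.6 CPM in CPX. Psmd14 (chr2:61711694-61800376, plus strand), the enzyme that cuts ubiquitin chains off the substrate, was lower in each EA than in each MPX library (-0.37 ± 0.17, unadjusted p = 0.0582) and, among the proteasome genes, had the smallest p. Psmd8 had 131, 119 and 123 CPM in EA, against 161, 192 and 175 CPM in MPX and 242, 146 and 136 CPM in CPX. Psmd8, a lid subunit, was likewise lower without overlap (-0.50 ± 0.25, unadjusted p = 0.0745). Psmc3, one of the 6 ATPases, had 128, 134 and 123 CPM in EA, against 148, 158 and 164 CPM in MPX (-0.29 ± 0.19). Psmc1, Psmc5 and the lid subunit Psmd13 also did not overlap, giving 6 of 17 cap genes lower without overlap with TMM (35.3%, beside 19% of all genes). The ubiquitin receptor Psmd4 overlapped (-0.20 ± 0.26), and the lid subunit Psmd11 was the one 19S gene besides Psmc6 with a positive difference (0.24 ± 0.16).

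The number of core and cap subunits with a negative difference between EA and MPX depended on the scaling. So did their share lower without overlap, also relative to all genes. A change of scaling shifts all genes by nearly the same amount. The distance of the subunit median from that of all genes could therefore hardly move, and says nothing of stability. With TMM 27 of 30 were negative and 11 ranges were lower without overlap (36.7%, beside 19% of all genes), and the median was -0.13 where that of all genes was 0.01. RLE factors gave 27 and upper-quartile factors 24 of 30 negative. When libraries were scaled by their listed totals alone, 18 of 30 were negative and 5 were lower without overlap (16.7%, beside 12.5% of all genes), and the median was -0.03 where that of all genes was 0.11. The chaperones had 19 of 23 positive differences with TMM and by totals alone. Of their ranges 14 were higher without overlap with TMM (60.9%, beside 21.5% of all genes) and 16 by totals alone (69.6%, beside 27.3%). Without CPX 4 and CPX 6 in the fit, 28 of the 30 core and cap subunits were negative and 18 of 23 chaperones positive. Without EA 7, 22 of the 30 were negative and 19 of 23 chaperones positive.

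The subunits that interferon induces, and that immune cells carry in quantity, had positive differences between EA and MPX. Psmb10 replaces Psmb7 in the immunoproteasome. Psmb10 had 72, 89.6 and 99.6 CPM in EA, against 78.8, 65.2 and 71.9 CPM in MPX and 86.7, 113 and 47.3 CPM in CPX. EA and MPX overlapped for Psmb10 (0.28 ± 0.30, unadjusted p = 0.394), but its ratio to Psmb7, per length, was 1.7, 2.57 and 3.33 in EA, against 1.64, 1.27 and 1.33 in MPX and 1.57, 3.7 and 1.41 in CPX. Each EA ratio exceeded each MPX ratio, with a two-sided exact permutation p of 0.1, the smallest that 3 against 3 libraries allow. The 4 highest B cell marker sums and the 4 highest ratios were those of EA 5, EA 7, EA 8 and CPX 6; the part of B cells in the ratio was not tested. Psmb8, a second immunoproteasome gene outside the set, had 76.4, 81.9 and 112 CPM in EA, against 71.5, 36.5 and 48.6 CPM in MPX and 88.2, 174 and 33.7 CPM in CPX.

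The PA28 activator genes Psme1 and Psme2, which open the core and lie 5912 bases apart on chromosome 14, were both higher in EA than in MPX without overlap. Psme1 had 126, 134 and 154 CPM in EA, against 119, 95.7 and 115 CPM in MPX and 147, 271 and 105 CPM in CPX. Psme2 had 73.5, 75.1 and 80.7 CPM in EA, against 67.6, 70.8 and 64.4 CPM in MPX and 142, 109 and 44 CPM in CPX. CPX spread widely for both, with its lowest level in CPX 8 and its highest in CPX 6 for Psme1 and in CPX 4 for Psme2. The differences between EA and MPX were 0.33 ± 0.33, unadjusted p = 0.351 and 0.18 ± 0.36, unadjusted p = 0.639. Psme3, the nuclear PA28 form, differed by -0.02 ± 0.26 and Psme4, the large activator PA200, by -0.40 ± 0.20, both with overlapping ranges.

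**Figure D3:**
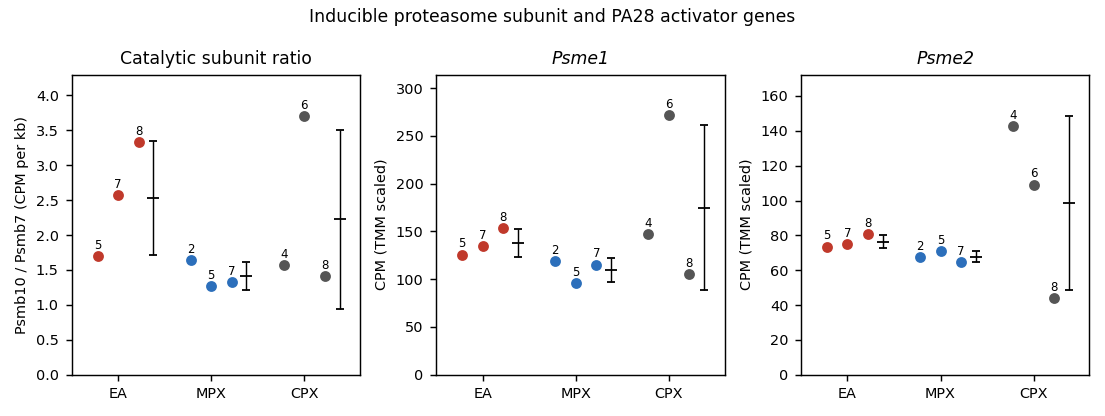
Ratio of Psmb10 to Psmb7 (left, CPM per kb over CPM per kb) and levels of Psme1 and Psme2 (middle and right, CPM after TMM scaling) in each library of EA, MPX and CPX, with library numbers at the points and mean ± SD of 3 libraries as bars. EA lies above MPX in all 3 panels, and CPX 6 has the highest ratio and the highest Psme1 level.

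Between MPX and CPX, the 2 groups without electroacupuncture, the chaperones were lower in MPX on average and the proteasome genes were mixed, again with no member past the test. The comparison shares its MPX libraries with the one above. edgeR called 0 of 58 members and 0 of 3958 genes (0%), with a smallest adjusted p of 0.362, DESeq2 called 1 member, Cct4, among 201 genes, and limma voom called 0. Before adjustment, 8 members had p under 0.05, all lower in MPX (13.8% of members), where 522 genes (13.2%) did so, 4.98% with a positive and 8.21% with a negative difference. Ranges did not overlap, MPX being lower, for 4 chaperones and 3 proteasome genes (12.1% of members, beside 7.71% of all genes) and, MPX being higher, for Hspa12b alone (1.72%, beside 8.46%). The difference was negative for 19 of 23 chaperones and 26 of 35 proteasome genes (77.6% of members, beside 59.3% of all genes, 40.7% being positive), with a median over members of -0.23 where that of all genes was -0.11. Scaled by listed totals alone, where the median of all genes was 0.0018, 16 of the 35 proteasome genes and again 19 of the 23 chaperones were negative.

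Among members, Cct4 had the smallest p of this comparison, with 144 ± 21.2 CPM in MPX and 268 ± 83.4 CPM in CPX (SD, n = 3 each). Every MPX library lay below every CPX library. The difference was -0.89 ± 0.28, unadjusted p = 0.0111 (edgeR adjusted p = 0.362), DESeq2 gave an adjusted p of 0.0378, and without CPX 8 edgeR gave 0.0486. All 6 CCT members were negative, Cct5 at -0.80 ± 0.31 and Cct2 at -0.52 ± 0.26 among them. Hsp90aa1 (-0.87 ± 0.34) and Hsp90ab1 (-0.85 ± 0.36) did not overlap, whereas Hspa8 (-0.91 ± 0.40) and Dnajb1 (-0.83 ± 0.38) did. Of the 8 members with the smallest p Hspe1 had the widest difference, -1.10 ± 0.45, with an SD of 95.6 CPM within CPX around a mean of 161 CPM. Psmc6 (-0.54 ± 0.22) and Psma3 (-0.60 ± 0.25) were lower without overlap. The edgeR adjusted p of those 8 members lay between 0.362 and 0.375.

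These differences depended on CPX 4 and CPX 6. Without both, leaving CPX 8 as the single library of its group and assumed to vary like the others, 31 of 35 proteasome and 13 of 23 chaperone differences between MPX and CPX were positive, and the median over members was 0.16. Of the 6 CCT genes 3 were then positive. CPX 4 held the highest level of all 13 core subunits, of the 6 cap ATPases and of 27 of the 30 core and cap subunits (90%), where it did so for 27.1% of all listed genes. Psmb1 had 146, 137 and 156 CPM in EA, against 151, 143 and 156 CPM in MPX and 314, 213 and 151 CPM in CPX. Psma7 had 130.2, 118 and 141 CPM in EA, against 133, 126 and 125 CPM in MPX and 236, 169 and 110.5 CPM in CPX. In both core subunits CPX 4 stood above the other 8 libraries, and CPX 8 was the lowest library for Psma7. CPX 8 was the lowest library for 17 of the 35 proteasome genes (48.6%), where it was so for 7.1% of all listed genes. CPX 4 also had the lowest TMM factor, 0.753, the other 8 lying between 0.981 and 1.1, and the highest adipocyte and mitochondrially encoded marker sums; their part was not tested.

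**Figure D4:**
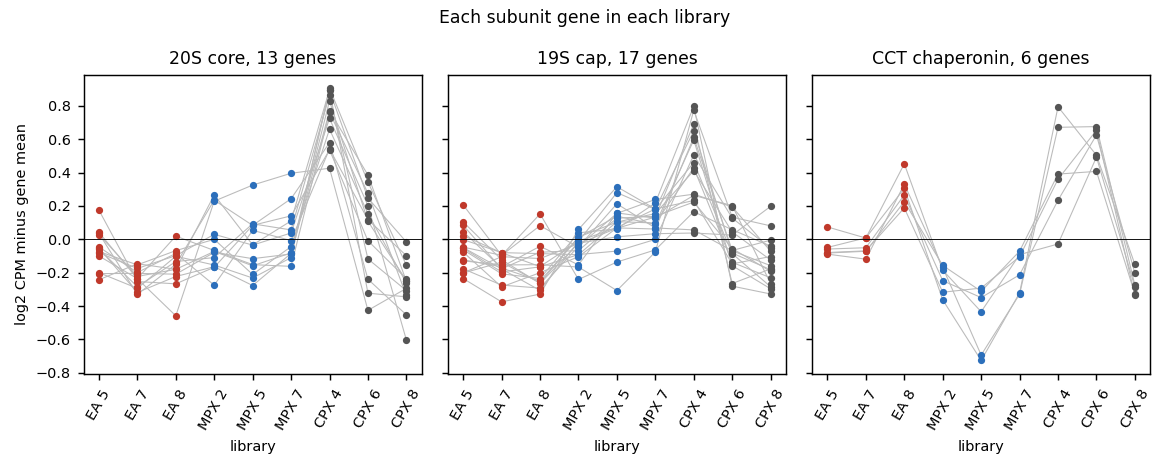
Log2 CPM of each gene minus its mean over the 9 libraries (y axis) by library (x axis) for the 13 core, 17 cap and 6 CCT genes; each grey line is 1 gene, and points are coloured by group (EA red, MPX blue, CPX grey). Of the 30 core and cap genes 27 peak in CPX 4, each CCT gene is highest in CPX 4 or CPX 6, and all MPX values lie below 0 for CCT.

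EA against CPX, which shares the libraries of both comparisons above, showed lower mean levels of most proteasome genes in EA and chaperone differences on both sides of 0. edgeR called 0 of 58 members and 0 of 3958 genes (0%; smallest adjusted p 0.997), DESeq2 called 0 members among 5 genes, and limma voom called 0. Before adjustment, 3 members had p under 0.05, all lower in EA (5.17% of members), where 117 genes (2.96%) did so, 0.96% with a positive and 2% with a negative difference. Ranges did not overlap for 7 proteasome genes, all lower in EA (12.1% of members, beside 5.08% of all genes), and for 0 members with EA higher, beside 2.1% of all genes. The difference was negative for 32 of 35 proteasome genes and 15 of 23 chaperones (81% of members, beside 61% of all genes, 39% being positive), with medians of -0.32 over the proteasome genes and -0.09 over all genes. Scaled by listed totals alone, where the median of all genes was 0.10, 20 of the 35 proteasome genes and 7 of the 23 chaperones were negative. Without CPX 4 and CPX 6, 11 of the 35 and 4 of the 23 were negative.

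Psma3 had 103, 85.6 and 91.5 CPM in EA, against 95.3, 88.1 and 101 CPM in MPX and 198, 127 and 106 CPM in CPX. Psmc6 had 93.8, 92.2 and 92.3 CPM in EA, against 91.5, 82.9 and 97.3 CPM in MPX and 175, 112 and 108 CPM in CPX. For Psma3, a ring subunit of the core, and Psmc6, a cap ATPase, each EA library lay below each CPX library, with CPX 4 above the rest; the differences between EA and CPX were -0.62 ± 0.25, unadjusted p = 0.0373 and -0.51 ± 0.22, unadjusted p = 0.0482 (edgeR adjusted p = 0.997 for both). Psmb1 (-0.63 ± 0.26) and Psma2 (-0.57 ± 0.25) overlapped, while Psmd14 (-0.39 ± 0.17), Psmd8 (-0.49 ± 0.25) and Psmd6 (-0.35 ± 0.18) did not. Among chaperones Hsph1 had the widest difference (1.06 ± 0.51, unadjusted p = 0.0699), with EA 5 at 139.9 CPM just under CPX 6 at 140.2 CPM. Hsp90aa1 (0.00 ± 0.34), Hsp90ab1 (0.03 ± 0.36), Hspa8 (-0.03 ± 0.39), Dnajb1 (-0.01 ± 0.38) and Hspd1 (0.01 ± 0.35) had differences close to 0, with errors of 0.34 to 0.39. Without CPX 4 and CPX 6 the median over members was 0.15, and 43 of 58 differences were positive.

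**Figure D5:**
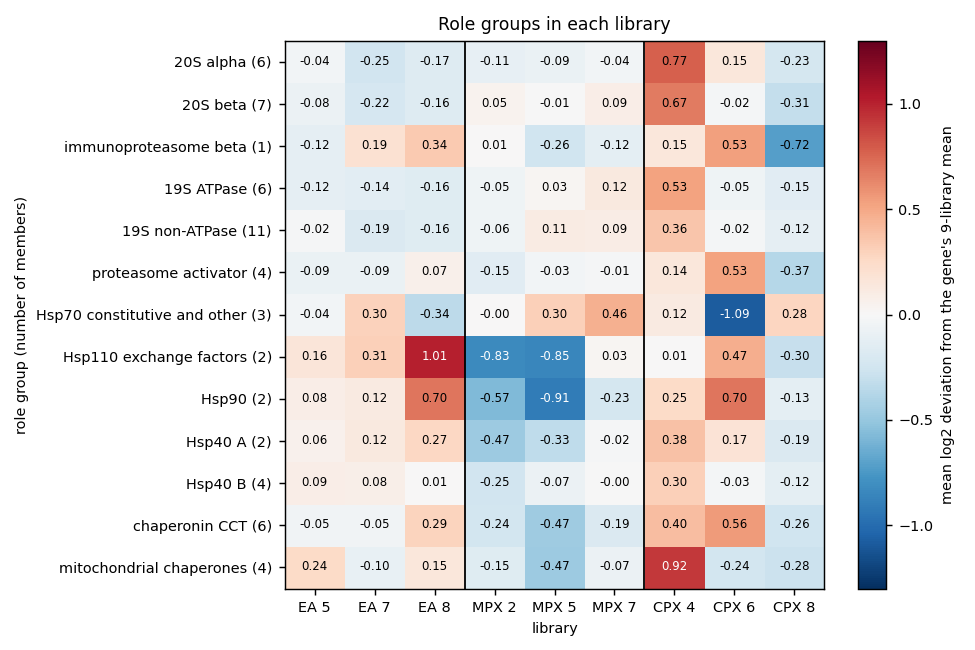
Mean over the members of each role group of the log2 deviation from the gene's own mean over 9 libraries (colour and printed number), by library (columns: EA, then MPX, then CPX). Core and mitochondrial groups are highest in CPX 4 (0.77 for 20S alpha, 0.92 for mitochondrial chaperones), Hsp90 is lowest in MPX 5 (-0.91), and Hsp110 is highest in EA 8 (1.01).

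Of the genes that work with the members, none passed the test in any comparison. Among co-chaperones and heat shock control, 24 of 43 genes were listed; between EA and MPX 14 were positive (58.3%, beside 51.4% of all genes), and 8 were higher and 3 lower without overlap (33.3% and 12.5%, beside 21.5% and 19%). Chordc1 had 90.9, 109 and 164 CPM in EA, against 53.9, 42.9 and 80 CPM in MPX and 92.8, 109 and 75.4 CPM in CPX. Fkbp5 had 184, 225 and 216 CPM in EA, against 60.1, 95.5 and 154 CPM in MPX and 117, 106 and 126 CPM in CPX. Fkbp4 had 136, 155 and 208 CPM in EA, against 103, 70 and 102 CPM in MPX and 164, 120 and 97 CPM in CPX. Chordc1, an Hsp90 partner (1.04 ± 0.31, unadjusted p = 0.00952), Fkbp5, an Hsp90 partner of steroid receptors that glucocorticoids induce (1.01 ± 0.32, unadjusted p = 0.0124), and its relative Fkbp4 (0.86 ± 0.28, unadjusted p = 0.0144) lay higher in EA than in MPX without overlap. The widest difference of the list ran the other way, in Cryab, a small heat shock protein that holds unfolded proteins, named after its values were seen. Cryab had 61.1, 109 and 22.9 CPM in EA, against 159, 300.1 and 267 CPM in MPX and 162, 19.3 and 188 CPM in CPX. Each EA library was below each MPX library (-1.91 ± 0.82, unadjusted p = 0.0463), and CPX 6 was the lowest of all 9. Fkbp5 was also higher in each EA than in each CPX library (0.84 ± 0.32, unadjusted p = 0.0283). The p23 co-chaperone Ptges3 was lower in MPX than in CPX without overlap (-0.98 ± 0.30, unadjusted p = 0.0107).

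For ubiquitin and its conjugation 19 of 28 genes were listed, with 15 negative between EA and MPX (78.9%, beside 48.6% of all genes, median -0.08) and 16 negative between EA and CPX (84.2%, beside 61%, median -0.44). Ube2n had 77.8, 68.4 and 83.4 CPM in EA, against 81.7, 90.2 and 94.4 CPM in MPX and 115, 136 and 97.3 CPM in CPX. Ube2n, which builds signalling ubiquitin chains, was lower in each EA than in each CPX library (-0.60 ± 0.18, unadjusted p = 0.0107). Rps27a had 83.8, 334 and 360.1 CPM in EA, against 105, 57.3 and 72 CPM in MPX and 291, 780.1 and 111 CPM in CPX. Rps27a encodes ubiquitin fused to a ribosomal protein and was highest in CPX 6, as were the summed markers of ribosomal proteins. For deubiquitination, shuttles and p97 13 of 20 genes were listed, and 8 were negative between EA and MPX (61.5%, beside 48.6% of all genes, median -0.13). Proteasome assembly and control had 5 of 13 genes listed, among them the CCT gene Tcp1. Nfe2l1 had 662, 705 and 427 CPM in EA, against 769.6, 845 and 878 CPM in MPX and 577, 303 and 525 CPM in CPX. Nfe2l1, the transcription factor that raises proteasome genes when proteasome activity falls, was higher in MPX than in CPX without overlap (0.83 ± 0.34, unadjusted p = 0.0372), and was lower in each EA than in each MPX library (-0.47 ± 0.33, unadjusted p = 0.192).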

How the data were processed

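Per the labels' protocols, Illumina TruSeq libraries were made from total RNA of adipose tissue. The submitters' processing notes name HISAT2 2.0.5 as aligner and mm10 as build; which program counted reads, against which annotation and with which strand setting is not given in the sources used here. Per the file headers, each library has a column of unnormalised read counts deposited by the authors, beside gene positions and lengths in bases as other deposited columns. The table lists 3958 genes in falling order of total count, down to 8471, and ends inside its last row; genes below were not analysed here. Of its names, 10 had become dates and 1 was incomplete, and all were restored from the gene ID with GENCODE M21.

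Counts of all 9 libraries were fitted with edgeR 4.0.16 (R 4.3.3; TMM, filterByExpr, robust quasi-likelihood, a mean per group), tested on simulated data, with p-values adjusted over all 3958 genes (Benjamini-Hochberg). SE is the log2 difference over the root of F. Alternatives were other scalings and filters, DESeq2 1.42.0, limma voom 3.58.1, single libraries left out and a replicate block. Replicates of a group differed by a chi-square per degree of freedom of at least 71.5, far above counting noise.

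Named in full were the 8 members with the smallest p in each comparison, as fewer than 8 passed, plus Hspa8, Hsp90aa1, Hsp90ab1, Hsph1, Dnajb1, Psmb5, Psmb6, Psmb10, Psmd4, Psma7, Psme1, Cct2 and Hspd1, and of each pathway list up to 3 genes with the smallest p. Members, gene lists and this rule were chosen with earlier results of these data known. Promoters came from RefSeq tables on GRCm38.p6.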

Additional observations from a re-analysis of the deposited data

How the results depend on the processing

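A positive count of members past an adjusted p of 0.05 came from DESeq2, with 1 for EA minus MPX (Hsph1) and 1 for MPX minus CPX (Cct4), and from leaving out single libraries, which gave 0 to 2 for MPX minus CPX (2 without CPX 8, Cct4 and Psme2); in the other fits the count was 0 in each comparison. Over all listed genes edgeR called 84 for EA minus MPX with those 2 groups alone, 80 without CPX 4 and CPX 6, 23 without CPX 6 and 6 with the replicate block; 12 for EA minus CPX without CPX 6; and 168 for MPX minus CPX without CPX 8. The median over members for EA minus MPX was -0.03, was 0.072 when scaled by listed totals alone, and ran -0.13 to 0.01 when single libraries were left out, the lowest without MPX 2. Nothing in the labels says that a library number marks a shared animal or batch. Same-numbered libraries had deviation correlations of 0.03 (EA 5 with MPX 5), 0.12 (EA 7 with MPX 7) and -0.51 (EA 8 with CPX 8). Differently numbered ones ran from -0.67 (EA 5 with CPX 6) to 0.71 (EA 8 with CPX 6). With so few libraries that differ in cell makeup, these values cannot decide whether numbers pair the samples. With the number as a replicate block the median over members was -0.06 for EA minus MPX, 0.22 for MPX minus CPX and 0.16 for EA minus CPX. MPX 2, CPX 4 and CPX 6 share their number with no other library, so in the block fit they add nothing to a comparison. CPX then rests on CPX 8 alone, set against EA 8, and the block is not independent of the fit without CPX 4 and CPX 6. Without CPX 4 and CPX 6 it was 0.16 for MPX minus CPX and 0.15 for EA minus CPX. Turned in sign under the replicate block were, for MPX minus CPX, 0.20 for Cct5, 0.21 for Hsp90aa1, 0.53 for Hspe1, 0.11 for Hsp90ab1, 0.28 for Hspa8, 0.89 for Hsph1, 0.66 for Dnajb1, 0.40 for Psmb6, 0.84 for Psmb10, 0.37 for Psma7, 0.24 for Psme1, 0.40 for Cct2 and 0.072 for Hspd1, and, for EA minus CPX, 0.054 for Psmb1, 0.042 for Psma2, 0.86 for Hspa8, 1.21 for Dnajb1, 0.30 for Psmb5, 0.17 for Psmb6, 0.35 for Psma7, 0.55 for Psme1 and 0.52 for Cct2. Without CPX 4 and CPX 6 the turned values were, for MPX minus CPX, 0.10 for Hspe1, 0.14 for Dnajb1, 0.49 for Psmb6, 0.63 for Psmb10, 0.40 for Psmd4, 0.23 for Psma7, 0.089 for Psme1 and 0.13 for Cct2, and, for EA minus CPX, 0.037 for Psma2, 0.93 for Dnajb1, 0.30 for Psmb5, 0.15 for Psmb6, 0.23 for Psma7, 0.38 for Psme1 and 0.35 for Cct2. Leaving out CPX 4 or CPX 6 alone turned more, given as ranges over each library left out: for MPX minus CPX Psmb6 (-0.29 to 0.49), Psmd4 (-0.16 to 0.34) and Hspd1 (-0.64 to 0.10), and for EA minus CPX Dnajb1 (-0.32 to 0.42), Psmb5 (-0.37 to 0.21), Psmb6 (-0.61 to 0.15) and Psme1 (-0.60 to 0.12). Differences smaller than their own error in both fits were given no direction. Apart from which libraries each fit uses, the cause of these turns was not tested. No named member turned in sign for EA minus MPX. The filters removed no gene and say nothing of stability. Precision was limited by a coefficient of variation of 40.2% between libraries; the SE of proteasome genes for EA minus MPX ran from 0.16 to 0.36.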

Other observations

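Chaperones of the endoplasmic reticulum, which the set leaves out, were listed as well. Hspa5, the Hsp70 of that compartment, had 635, 562 and 1294 CPM in EA 5, 7 and 8, against 547, 515 and 657 CPM in MPX 2, 5 and 7 and 584, 864 and 703 CPM in CPX 4, 6 and 8. Its Hsp90 partner Hsp90b1 had 404, 367 and 790 CPM in EA, against 369, 245 and 308 CPM in MPX and 355, 799 and 461 CPM in CPX. EA 8 was the highest library for Hspa5, EA 8 and CPX 6 were the highest for Hsp90b1, and EA and MPX overlapped for both genes (edgeR adjusted p = 0.775 for each). Dnajb9 and Dnajb11, Hsp40 partners of Hspa5, were also highest in EA 8, with 106.5 and 129 CPM.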
